A study of Mus musculus with 9 samples.

Results

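The cytosolic ribosomal protein genes were the rows whose symbol was Rpl or Rps followed by digits, with an optional a, x, l or y, together with Rplp0, Rplp1, Rplp2 and Rpsa. This rule took 81 of the 26611 named genes of the files, 49 for proteins of the large subunit and 32 for proteins of the small subunit. It left out paralogs with longer symbols such as Rpl22l1, which were counted in a list of their own. The genes were followed in chromatin immunoprecipitation libraries from mouse MLL-ENL leukemia cells, in which the product of Kmt2a is fused to that of Mllt1. All 3 genotypes carried this fusion. The first carried a floxed allele (labelled fl), the second the deleted allele (ΔERT2), and the third the deleted allele plus Flag-tagged Hhex (ΔERT2 + Hhex-F), called the rescue in what follows. Neither the floxed gene nor the clonality of a line is stated in the labels. Each genotype had 1 library for H3K4me3, 1 for H3K27me3 and 1 for the Flag antibody, so no difference between genotypes has a replicate check and none was tested.

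Ribosomal proteins assemble with ribosomal RNA into the subunits that decode messenger RNA (the small subunit) and join amino acids (the large subunit). Nearly every cell type transcribes their genes at high rates, and many of their transcripts open with a cytosine followed by a run of pyrimidines, the 5′ terminal oligopyrimidine (TOP) motif through which mTOR controls their translation. H3K4me3 marks the starts of active genes, and H3K27me3, placed by Polycomb repressive complex 2, marks repressed genes; the class therefore serves as an active reference for the first mark and an unmarked one for the second.

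The promoters of 60 of the 81 genes were matched in a RefSeq promoter table (GRCm38.p6, the assembly of mm10). The stretches shown run from 60 bases before the listed transcription start to 20 bases from it, on the coding strand, and show where the 5′ ends of the genes that the results turn on begin. Rps27 lies at chr3:90213629-90213708 (minus strand), Rpl41 at chr10:128549149-128549228 (minus), Rpl12 at chr2:32961652-32961731 (plus), Rpl28 at chr7:4792905-4792984 (plus) and Rpl13a at chr7:45128726-45128805 (minus). The tissue-restricted paralogs are Rpl3l at chr17:24727766-24727845 (plus), Rpl39l at chr16:10170168-10170247 (plus) and Rpl10l at chr12:66284382-66284461 (minus). Capitals mark a match to CTTTNC, a pyrimidine-rich start motif.
Rps27: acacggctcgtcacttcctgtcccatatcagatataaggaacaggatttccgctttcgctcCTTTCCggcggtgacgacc
Rpl41: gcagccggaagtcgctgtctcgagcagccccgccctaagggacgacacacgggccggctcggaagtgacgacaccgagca
Rpl12: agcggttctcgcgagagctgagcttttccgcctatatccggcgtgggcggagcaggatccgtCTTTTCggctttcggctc
Rpl28: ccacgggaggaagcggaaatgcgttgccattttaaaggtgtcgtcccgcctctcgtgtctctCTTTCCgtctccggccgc
Rpl13a: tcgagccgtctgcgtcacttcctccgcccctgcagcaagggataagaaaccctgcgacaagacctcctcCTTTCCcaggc
Rpl3l: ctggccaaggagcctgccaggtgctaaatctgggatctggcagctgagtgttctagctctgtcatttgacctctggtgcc
Rpl39l: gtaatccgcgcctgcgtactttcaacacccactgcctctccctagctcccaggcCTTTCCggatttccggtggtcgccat
Rpl10l: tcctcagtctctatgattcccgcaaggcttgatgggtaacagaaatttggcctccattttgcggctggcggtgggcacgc

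The letters CTTTNC were searched on the coding strand within 20 bases of the first listed start. They were found in 13 of the 60 promoters (21.7%), those of Rpl4, Rpl12, Rpl13a, Rpl15, Rpl18, Rpl27a, Rpl28, Rpl35, Rpl38, Rpl39l, Rps10, Rps12 and Rps27. They were found in 4.77% of the 27025 genes of the table, in 4.31% of the protein-coding ones and in 2 of 68 genes for mitochondrial ribosomal proteins (2.94%). The first transcribed base was C in 31.7% of the members and in 16.2% of all genes, so a listed start with the first base of a TOP transcript was the minority even here; listed starts can differ from the starts used in these cells. The search for C was added after the data were seen.

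The other motifs were searched on both strands over 250 bases before to 50 bases after the start, each by itself, so that a base could count for more than 1 motif. The ETS core CCGGAAG was in 40.0% of the members, 35.3% of the mitochondrial ribosomal protein genes and 9.12% of all genes. The YY1 core ATGGCG was in 28.3%, 26.5% and 9.24% of them. The plus-strand genes measured for H3K4me3 held these cores in 19.3% and 16.5%. The Sp1 GC box GGGCGG was in 58.3% of the members, between the 35.9% of all genes and the 68.8% of plus-strand genes measured for H3K4me3. The TATA box TATAAA was in 5 members (Rpl36a, Rpl39, Rplp0, Rps2 and Rps28; 8.33%), between the 14.2% of all genes and the 5.94% of plus-strand measured genes. The palindrome of NRF1 was in 1 member, Rpl37a (1.67%, against 0.977% of all genes). The promoters' median GC content was 57.0% in the members, 52.7% in all genes and 62.0% in the plus-strand genes measured for H3K4me3. These matches describe the letters of the windows and are no evidence of binding. Plus-strand members with CTTTNC (n = 7) had a median H3K4me3 of 82.1 CPM in the floxed library, and those without it (n = 31) 89.9 CPM.

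**Figure D1:**
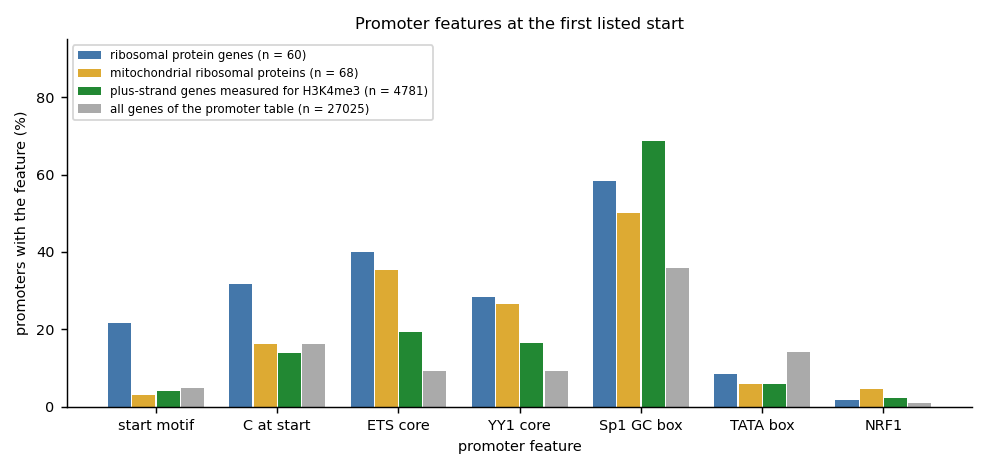
Share of promoters (%, vertical axis) that hold each feature (horizontal axis) at the first listed start. Bars are the 60 ribosomal protein genes, 68 mitochondrial ribosomal protein genes, 4781 plus-strand genes measured for H3K4me3 and all 27025 genes of the table; the start motif stood at 21.7% in the first and 2.94% in the second.

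The deposited tables hold whole-number read counts per gene. H3K27me3 was counted over the whole gene span and H3K4me3 in windows of 301 bp whose place relative to the gene is not stated in the labels or headers. Named genes held 645240, 420701 and 395133 H3K4me3 counts in the floxed, deleted and rescue libraries, and 2444487, 2535576 and 4203349 H3K27me3 counts. Values are given as CPM, relative to these totals, and genes that averaged 20 counts or more across the libraries of a mark were called measured. As a check of the labelled cell type, 9 of 9 plus-strand myeloid and leukemia markers were measured for H3K4me3, among them Mpo, Elane and Cebpa, against 0 of 3 T-cell and NK-cell markers, 0 of 2 erythroid and megakaryocyte markers, 0 of 2 stromal and endothelial markers and 1 of 2 B-cell markers (Ebf1). Ribosomal protein genes have many processed pseudogenes, and the treatment of reads with several matches is not stated in the labels, so single-gene counts are uncertain to that extent.

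H3K4me3 counts moved with the strand of the gene, a split made after the data were seen. The median over all 9235 named plus-strand genes was 49.6 CPM in the floxed library and 51.8% of them were measured. Over the 9223 minus-strand genes the median was 1.55 CPM and 3.91% were measured. The lower coordinate of a plus-strand gene is its start, and that of a minus-strand gene is its far end; whether the window sits at that coordinate was not tested. Strand is not given in the promoter table for 8153 named genes, 21 members among them.

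The ribosomal protein genes split the same way. Of the 38 plus-strand members 31 were measured, with medians of 88.3, 84.4 and 77.2 CPM in the floxed, deleted and rescue libraries. Of the 22 minus-strand members 5 were measured, with medians of 20.1, 17.8 and 20.2 CPM. Of the 21 members with no strand entry 14 were measured, with medians of 79.0, 71.3 and 75.9 CPM. In all, 50 of the 81 members passed the count minimum, and a low count of a minus-strand member is therefore no sign of an unmarked start.

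Within the 22 minus-strand genes the floxed medians were lower the farther the start lay from the lower end, over wide ranges and few genes. The 3 genes under 1.5 kb had a median of 270 CPM and a range of 1.55 to 389 CPM. The 5 genes at 1.5 to 3 kb had a median of 27.9 CPM (3.10 to 139), the 11 at 3 to 5 kb 18.6 CPM (0 to 186), the 2 at 5 to 10 kb 15.5 CPM (10.8 to 20.1), and Rps15a, whose start lay 11773 bp away, 7.75 CPM. In the deleted library the order broke, with 9.51 CPM at 3 to 5 kb and 10.7 CPM at 5 to 10 kb. Among all 903 minus-strand genes under 1.5 kb the floxed median was 0 CPM and 82 were measured.

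**Figure D2:**
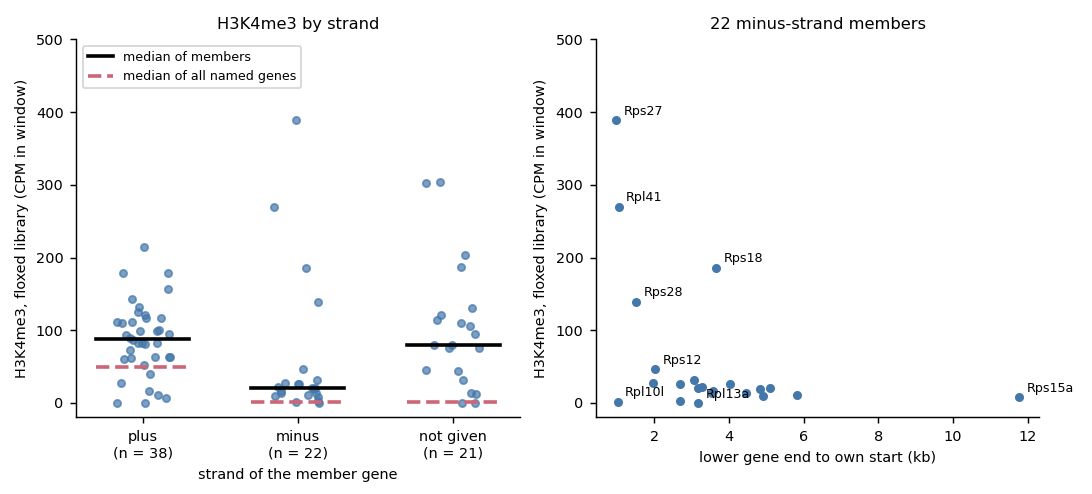
Left, H3K4me3 of each of the 81 genes in the floxed library (CPM in the window) by strand, with the median of the members (solid) and of all named genes (dashed). Right, the same values for the 22 minus-strand members against the distance from the lower gene end to their own start (kb). Rps27 and Rpl41 stand highest, and Rpl10l at a like distance is near 0. The starts of Rab13 and Zc3h10 lie 1048 and 364 bp from the lower ends of Rps27 and Rpl41.

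Among plus-strand genes, for which the class can be compared like with like, most ribosomal protein genes were above the median of all genes and below the top. In the floxed library 31 of 38 stood at or above the median of all plus-strand genes, with 30 in the deleted and 28 in the rescue library. Only Rps19 was in the highest 10% of plus-strand genes in the floxed library. That median takes in genes under the count minimum, since only 51.8% of plus-strand genes were measured. Against measured genes alone the members stood below the median, as given in the last section. The plus-strand genes for mitochondrial ribosomal proteins had medians of 136, 143 and 142 CPM, higher than the cytosolic class in each library. The plus-strand ribosome biogenesis and RNA polymerase I genes (n = 23) had medians of 121, 109 and 116 CPM, and plus-strand translation factors (n = 31) 94.5, 83.2 and 93.6 CPM. The order of the 81 members was alike in the 3 libraries, with Spearman rho of 0.955 between floxed and deleted, 0.963 between floxed and rescue and 0.948 between deleted and rescue; the points share the window and its strand dependence.

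In the small subunit 21 of 32 genes were measured. The 11 plus-strand ones had medians of 99.2, 85.6 and 83.5 CPM in the floxed, deleted and rescue libraries. Rps27, which encodes a zinc-finger protein of the small subunit, held the most H3K4me3 of all members, with 251, 169 and 178 counts, or 389, 402 and 450 CPM. It is a minus-strand gene of 982 bp (chr3:90212667-90213648), so that its start lies 981 bp from its lower end. Its paralog Rps27l, a plus-strand gene and a known p53 target, held 85, 49 and 58 counts.

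Rps20 held 196, 93 and 118 counts, and Rps19, mutated in human Diamond-Blackfan anaemia, 138, 83 and 70. The deleted-to-floxed ratio of Rps20 was 0.728 (95% interval 0.562 to 0.936), short of the 1.5 times of the size rule given below. Rps19 went from 214 CPM in the floxed library to 197 in the deleted and 177 in the rescue library, and its ratio of rescue to floxed, 0.828 (95% interval 0.612 to 1.11), is within counting error. Rps24 (58, 34 and 30 counts), a further gene of that anaemia, and Rps14 (68, 40 and 28), lost in the human 5q- syndrome, lay in the middle of the class. Rpsa, which encodes a protein also described as a laminin receptor, held 75, 45 and 46 counts, or 116, 107 and 116 CPM, and did not move beyond counting error. Rps26 (18, 10 and 19 counts) and Rps7 (13, 2 and 2) are minus-strand genes under the count minimum. Rps18, also on the minus strand and with its start 3667 bp from its lower end, nevertheless held 120, 72 and 81 counts. The start of B3galt4 lies 510 bp from that end, and the counts may belong to either gene.

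In the large subunit 29 of 49 genes were measured. The 27 plus-strand ones had medians of 82.1, 83.2 and 73.4 CPM in the floxed, deleted and rescue libraries. Rpl41, which encodes a very short basic peptide of the ribosome, held 174, 87 and 122 counts on the minus strand. Its ratios of deleted to floxed, 0.767 (0.586 to 0.998), and of rescue to deleted, 1.49 (1.12 to 1.99), have intervals that leave out 1 and are also short of the size rule. Its start lies 1058 bp from its lower end, and the start of Zc3h10 lies 364 bp from that end. Other starts were searched only in the promoter table, which lacks 8153 named genes and gave no neighbour for Rpl17 and Rps14. In all, at least 7 of the 81 genes have the start of another gene within 500 bp of their RefSeq lower end (Rpl7a, Rps2, Rpl12, Rpl18, Rpl35a, Rpl36 and Rpl41). Counts at that end may belong to either gene. The own listed starts of Rps2 and Rpl18 lie 1942 and 2604 bp from that end. Rpl36 (chr17:56610094-56614246) has a span of only 852 bp in the deposited counts. For Rps2, Rpl18 and Rpl36 the counted end may therefore be another one, and shared counts are not shown.

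Rpl5 and Rpl11, which bind Mdm2 as a complex with 5S RNA when ribosome assembly fails, were measured unequally. Rpl5, on the plus strand, held 53, 37 and 32 counts, or 82.1, 88.0 and 81.0 CPM. Rpl11, on the minus strand, held 17, 13 and 10. Rpl26 (53, 36 and 25 counts), also known to act on p53, and Rpl35a (52, 31 and 20) were near the class median, while Rpl23 (6, 1 and 2) is a minus-strand gene. Some plus-strand genes were low in all libraries although their listed start is at their lower end. Rpl13 held 4, 2 and 2 counts and Rps21 of the small subunit 7, 6 and 6, and Rpl27 held 11, 3 and 3.

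The stalk proteins, which recruit translation factors to the large subunit, were all measured. Rplp1 held 195, 103 and 108 counts, behind Rps27 and Rps20 in mean level. Rplp2 held 115, 56 and 61 counts, and Rplp0, which anchors the other two, held 56, 38 and 47. In CPM, Rplp0 was highest in the rescue library (86.8, 90.3 and 119), and Rplp1 and Rplp2 were highest in the floxed library (302 and 178 CPM). No stalk gene was past the size rule given below.

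**Figure D3:**
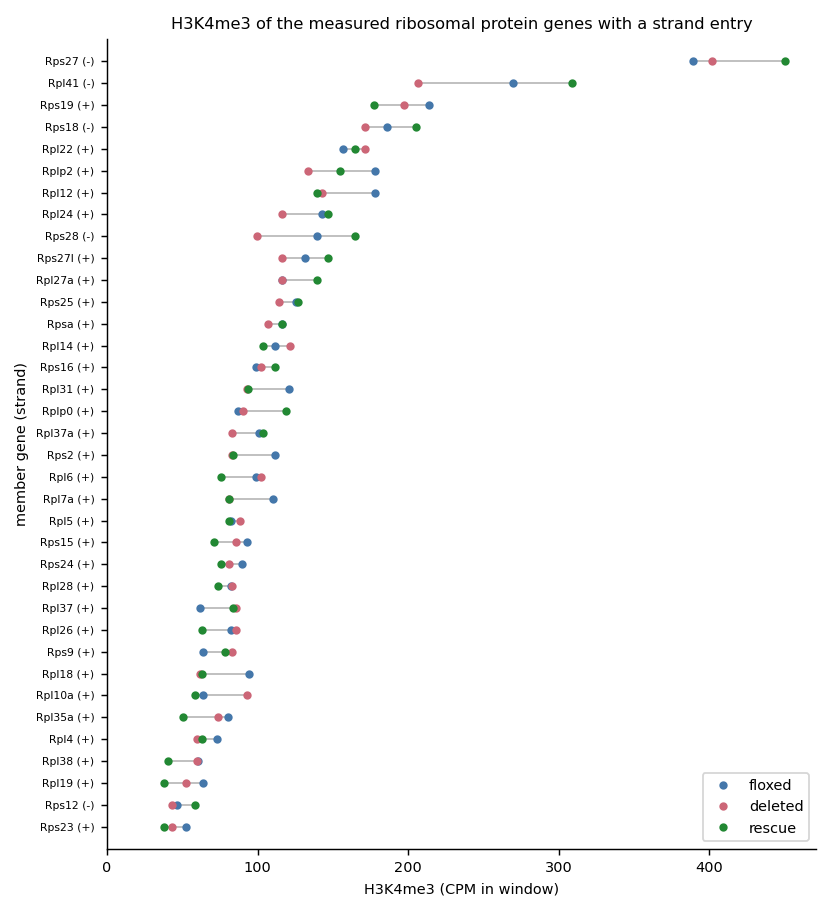
H3K4me3 (CPM in the window, horizontal axis) of the 36 measured ribosomal protein genes with a strand entry (31 plus, 5 minus), ordered by their mean over the 3 libraries, with 1 point for each library and the strand in brackets. Rps27 stands at 389 to 450 CPM and most genes between 50 and 150 CPM.

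The paralogs restricted to some tissues were at or near 0 counts. Rpl3l, the striated muscle form of Rpl3, held 0, 0 and 1 counts with its listed start at its lower end on the plus strand. Rpl39l, a testis form of Rpl39, held 0 counts in each library, also on the plus strand with its start 31 bp from the lower end. Rpl10l, a testis form of Rpl10, held 1, 0 and 0 counts on the minus strand with its start 1022 bp from its lower end. Rps27 and Rpl41, at a like distance, held over 80 counts in every library. Other genes start near their lower ends, Rab13 at 1048 bp for Rps27 and Zc3h10 at 364 bp for Rpl41. For Rpl10l the listed other start lies 939170 bp away. Among all 903 minus-strand genes under 1500 bp the floxed median was 0 CPM and 82 were measured. The low count of Rpl10l is therefore no sign of an unmarked start. Of the ubiquitous partners, Rpl10 on the plus strand held 18, 11 and 14 counts, Rpl3 without a strand entry 9, 6 and 2, and Rpl39 on the minus strand 2 in each. Rpl13a, often used as a housekeeping reference, held 0, 1 and 0 counts; it lies on the minus strand with its start 3182 bp from its lower end.

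For differences between the libraries, the size rule called a gene where its CPM changed by 1.5 times or more with a 95% interval (exact, conditional binomial) that left out 1. Such intervals hold counting error and no variation between cultures. A prior count of 1 was added for log2 ratios.

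Deleted against floxed, 1 of the 50 measured members was lower and 0 were higher. Of all 6681 measured genes 4.39% were lower and 3.02% higher. The 1 member was Rpl32 (chr6:115805514-115808743), a large-subunit gene without a strand entry, which held 61, 21 and 30 counts, or 94.5, 49.9 and 75.9 CPM. Its ratio of deleted to floxed was 0.528 (95% interval 0.305 to 0.879), and its rescue value lay between the others. The median log2 ratio of the measured members was −0.15 against −0.03 for all measured genes, with 37 of 50 members and 53.9% of all genes below 0. In the plus-strand members the median was −0.12 (all plus-strand genes −0.02) and 0 of 31 were called.

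Rescue against deleted, 0 of 50 members were lower and 3 were higher, beside 5.97% and 4.49% of all measured genes. Rps28, a minus-strand small-subunit gene, held 90, 42 and 65 counts and had a ratio of 1.65 (1.10 to 2.49). Rpl23a held 51, 22 and 39 counts with a ratio of 1.89 (1.09 to 3.34), and Rps27a, which encodes ubiquitin fused to a small-subunit protein, 49, 30 and 47 with a ratio of 1.67 (1.03 to 2.73). Rps28 and Rpl23a had been lower in the deleted than in the floxed library by ratios of 0.716 (0.484 to 1.04) and 0.662 (0.382 to 1.11), whose intervals include 1. The members' median log2 ratio was 0.02 against 0.03 for all genes, and −0.03 for the plus-strand members, of which 0 were called. Both comparisons use the same deleted library, so they are not independent.

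Rescue against floxed, 0 of 50 members were lower and 1 was higher, beside 3.92% and 1.92% of all measured genes. The member was Rps27a, at 75.9, 71.3 and 119 CPM in the floxed, deleted and rescue libraries, with a ratio of 1.57 (1.03 to 2.39). The members' median log2 ratio was −0.14 against −0.01 for all genes, with 31 of 50 below 0. This direction depended on the scaling: when libraries were scaled to the summed counts of olfactory receptor genes the members' median was 0.15, while that of all genes moved to 0.28. The 4 genes called in any comparison (Rpl32, Rps28, Rpl23a and Rps27a) include no gene known to lie on the plus strand.

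**Figure D4:**
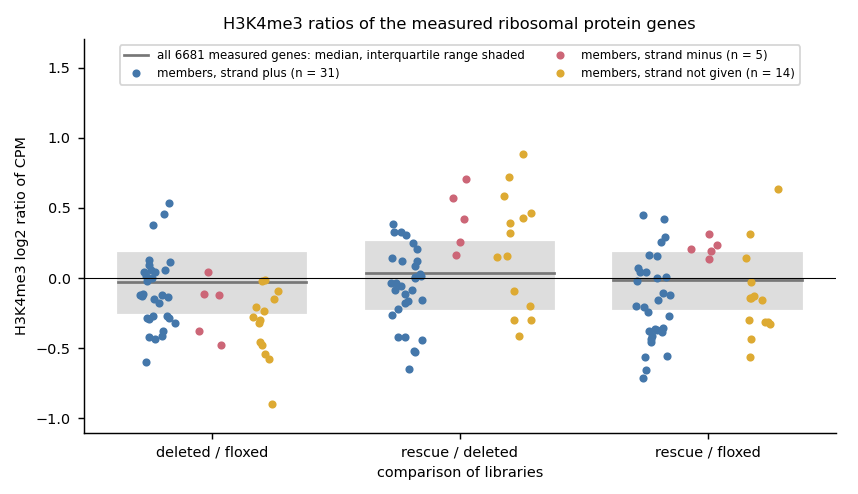
Log2 ratio of H3K4me3 CPM (vertical axis) in the 3 comparisons for the 50 measured ribosomal protein genes, 1 point each, coloured by strand. The line and shaded band are the median and interquartile range of all 6681 measured genes; in deleted against floxed 37 of 50 points lie below 0, and all points lie between −0.90 and 0.89.

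Summed over all 81 windows, the members held 4370, 2481 and 2564 H3K4me3 counts, or 0.677%, 0.590% and 0.649% of the libraries. The ratio of deleted to floxed was 0.871 (0.829 to 0.915), that of rescue to deleted 1.10 (1.04 to 1.16), and that of rescue to floxed 0.958 (0.912 to 1.01). In the plus-strand members alone the ratios were 0.916 (0.854 to 0.982), 0.995 (0.919 to 1.08) and 0.912 (0.849 to 0.979). With this scaling the sum in the plus-strand genes was lower in both lines with the deleted allele. Scaled to olfactory receptor genes, the plus-strand ratios were 0.878 (0.819 to 0.941), 1.28 (1.18 to 1.38) and 1.12 (1.04 to 1.20). Both ratios with the rescue library thus moved from below to above 1, and only deleted against floxed kept its direction. Over all 81 genes the ratio of rescue to floxed likewise became 1.18 (1.12 to 1.24). The olfactory receptor sums were only 729, 496 and 363 counts. These intervals take those sums as fixed and are therefore too narrow. Whether they would leave out 1 with the counting error of those sums was not tested. Scaled to totals again, the ratio of rescue to deleted was 1.28 (1.13 to 1.44) in the minus-strand members and 1.17 (1.06 to 1.30) in those without a strand entry.

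The lists around the class were chosen by function. Of the mitochondrial ribosomal proteins 44 of 77 were measured, with 1 lower (Mrpl16) and 0 higher deleted against floxed, and their summed ratio was 0.973 (0.927 to 1.02). Other genes with TOP transcripts had 10 of 17 measured, with 3 lower and 0 higher. These were Eef1a1, which brings aminoacyl-tRNA to the ribosome (47, 16 and 44 counts), Eef2, the translocation factor (62, 24 and 41), and Gas5, a host of small nucleolar RNAs (93, 37 and 52). Their list's summed ratio was 0.790 (0.696 to 0.897) deleted against floxed and 1.35 (1.17 to 1.55) rescue against deleted, where 2 genes (Eef1a1 and Eef2) were higher.

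Of the 9 ribosomal proteins outside the rule and their partners 5 were measured. The ribosome biogenesis and RNA polymerase I genes had 26 of 44 measured and 0 called deleted against floxed, with a summed ratio of 1.06 (0.990 to 1.13). The translation factors, which include Eef1a1 and Eef2, had 32 of 66 measured, 3 lower and 0 higher. Housekeeping genes had 9 of 15 measured, and Pgk1 among them ranged from 45.2 CPM in the deleted to 185 CPM in the rescue library, so a constitutive role did not go with equal counts in these libraries.

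H3K27me3 counts over the class were few. No member reached the count minimum, which 39.8% of all named genes did, and the highest count was 16, over Rpl10a in the rescue library. In the floxed library 37 of 81 members (45.7%) held 0 counts, in the deleted 23 (28.4%) and in the rescue 10 (12.3%), beside 19.8%, 17.9% and 14.2% of all named genes. Counts were taken over whole spans, and the members are short: 269 kb in 81 genes, against 1013600 kb in 26610 named genes. A short gene can miss the minimum or hold 0 counts at any density, so these shares do not compare marking. Densities per kb take length into account. Summed over the members' 269 kb there were 73, 134 and 345 counts, or 0.111 (0.0869 to 0.139), 0.196 (0.164 to 0.232) and 0.305 (0.273 to 0.339) CPM per kb with exact Poisson intervals. The sum over all named genes stood at 0.987 CPM per kb in each library, a level that the scaling fixes and to which strongly marked genes add most. By the median gene the members held 0.0801, 0.166 and 0.293 CPM per kb and all named genes 0.204, 0.231 and 0.231, so the members' median was below that of all genes in the floxed and deleted libraries and above it in the rescue library. Against the median of genes with any count, the members' median stood at 0.272, 0.486 and 0.938 times.

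The low density was not equal between the libraries. The summed ratio of deleted to floxed was 1.77 (1.32 to 2.39), that of rescue to deleted 1.55 (1.27 to 1.91) and that of rescue to floxed 2.75 (2.13 to 3.59). It was higher in the rescue than in the floxed library in 63 members and lower in 12. The floxed count was 0 in 37 of the 81 members, where any read in the larger rescue library made it higher. No share over all genes is given beside these counts of members. The mitochondrial ribosomal protein genes, at 0.125, 0.110 and 0.122 CPM per kb, had a ratio of rescue to floxed of 0.976 (0.843 to 1.13). Their spans are longer, and other short genes also differed: 1098 genes measured for H3K4me3, with spans of up to 5 kb and under 20 H3K27me3 counts, had 0.216, 0.254 and 0.320 CPM per kb and a ratio of rescue to floxed of 1.48 (1.39 to 1.58). The 70 members with spans of up to 5 kb had 0.111, 0.214 and 0.343 CPM per kb and a ratio of 3.08 (2.29 to 4.22). The part of fragment length, background reads or library depth in these ratios was not tested.

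Of single genes, Rpl10a (1, 2 and 16 counts), Rpl8 (2, 3 and 12), Rpl36 (1, 4 and 2), Rps21 (0, 2 and 6) and Rpl41 (1, 3 and 2) had the highest mean densities. All but Rpl10a and Rpl8 rest on at most 8 counts in all, and no order among them is detectable at this depth. The silent paralogs Rpl3l (2, 3 and 6 counts) and Rpl39l (1, 5 and 9) were under the count minimum like the active members, at 0.172 and 0.457 CPM per kb in the rescue library, where the class as a whole held 0.305.

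**Figure D5:**
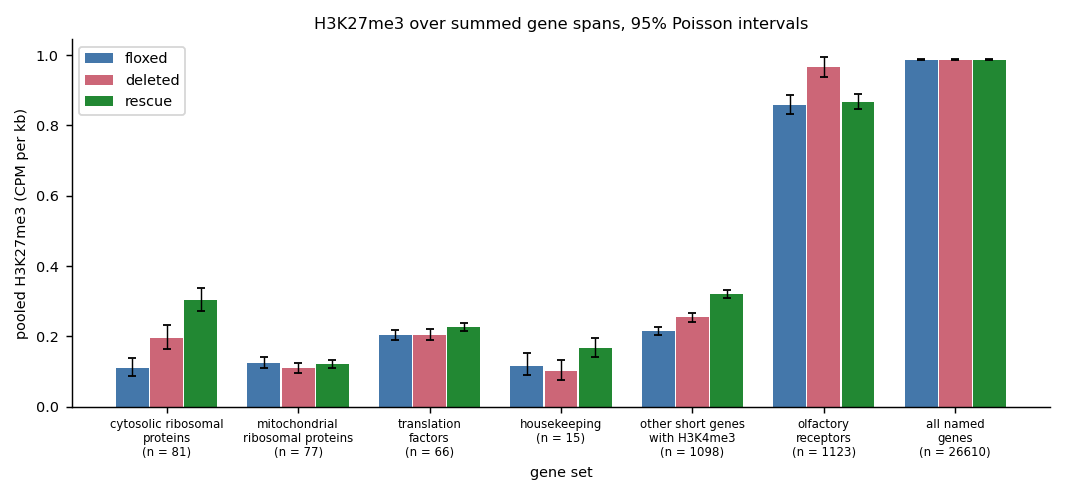
H3K27me3 summed over gene spans (CPM per kb, vertical axis, from 0) for 7 gene sets in the floxed, deleted and rescue libraries, with 95% Poisson intervals for counting error. The ribosomal protein genes stand at 0.111, 0.196 and 0.305 CPM per kb, under the sum of 0.987 for all named genes; by the median gene the members were above all named genes in the rescue library (0.293 and 0.231).

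No summit of the Flag antibody lay near the class. The authors' lists hold 475, 220 and 429 summits for the floxed, deleted and rescue lines, of which only the last carries Flag-tagged Hhex. Within 10 kb of a gene span 0 of 81 members had a summit in any list, beside 0.692%, 0.324% and 0.582% of the 25275 genes with a position. With shares that small among all genes, a count of 0 is not a result about the class.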

How the data were processed

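Chromatin immunoprecipitation libraries of H3K4me3, H3K27me3 and the Flag tag were used, 1 for each of 3 genotypes. The authors deposited raw read counts for every gene in the 6 histone files and summits with −log10 scores in the 3 Flag files, of which only the positions were used. Per the submitters' processing notes the build was mm10 and the tools included featureCounts and MACS2, without versions; an aligner is not named there. Rows without a symbol (568, with 0.608% to 0.739% of the counts) were left out of totals and comparisons, and 1 named gene with a negative length was left out of densities.

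Each count was scaled by the library's total over named genes (CPM), and for H3K27me3 by the span. Ratios have exact conditional binomial (Clopper-Pearson) intervals and sums have exact Poisson intervals, both at 95%, computed with Python 3.11.15, scipy 1.17.1 and pandas 2.3.3, and the call rule was tested on simulated data. Factors from edgeR 4.0.16 (TMM) and DESeq2 1.42.0, under R 4.3.3, entered the alternative scalings only. Other alternatives changed the count minimum, the size rule, the prior count, the paralogs kept and the summit distance; splits by strand, sums over members, their other scalings and the search for C at the start were added after seeing the data. The members and lists were chosen with earlier results of these data known.

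Positions came from a RefSeq gene table and strand, starts and promoters from a RefSeq promoter table (both GRCm38.p6). The file span equalled the gene table's span for 55 of 81 members, and 32 of 38 plus-strand members had their listed start within 150 bp of their lower coordinate. The rule for named genes took up to 6 members called in each direction of a comparison, the 5 highest and 5 lowest in mean H3K4me3, the 5 highest in H3K27me3 density, the pairs of Rpl3, Rpl10, Rpl39 and Rps27 with their paralogs, and a list of stalk, p53 and disease genes; genes of the other lists were named where called; Rps18, Rps15a, Rpl13, Rpl27 and genes picked by motif or by a neighbouring start were named after their values were seen. Some genes that the rule takes are not reported here. Figures were drawn with matplotlib 3.10.9.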

Additional observations from a re-analysis of the deposited data

How the results depend on the processing

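The limits are 1 library per group, 301 bp windows of unstated position, and few counts per gene. No paired analysis was possible because each group has 1 library. Of the values that answer a comparison, 123 kept their direction and call or stayed near the main value, 33 moved and 3 reversed. A further 3 were summed ratios whose intervals began or ceased to leave out 1. Changed numbers of called members are among the 33 that moved. The cause of these changes was not tested.

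Deleted against floxed, the 1 lower member became 2 with TMM factors and 3 without the count minimum, and 0 with a minimum of 50, a ratio of at least 2 or the plus strand only. Rescue against deleted, the 3 higher members became 1 with a minimum of 50, 13 with olfactory receptor scaling (26% of 50, beside 23.3% of all genes), and 0 with a ratio of at least 2 or the plus strand only. Rescue against floxed, the 1 higher member became 3 with olfactory receptor scaling (6% of 50, beside 12.3% of all genes) and 0 with TMM factors, a minimum of 50, a ratio of at least 2 or the plus strand only. Olfactory receptor scaling moved the median of all genes to 0.39 and 0.28 in the latter 2 comparisons, and that of the members to 0.37 and to 0.15, the last from −0.14; Rps27 moved to 0.52 and 0.51. The same scaling reversed 3 summed H3K4me3 ratios: rescue to floxed over all members, from 0.958 to 1.18, and over plus-strand members, from 0.912 to 1.12, and rescue to deleted over plus-strand members, from 0.995 to 1.28 (1.004 with TMM factors). With TMM and DESeq2 factors the first was 0.925 and 0.951, with intervals that leave out 1. For summed ratios scaled to olfactory receptors, the intervals took the receptors' summed counts as fixed and are too narrow. The reversals are therefore less certain than those intervals show.

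Median H3K4me3 of the members was 75.9, 71.3 and 63.3 CPM in the floxed, deleted and rescue libraries, 107.7, 91.5 and 98.7 CPM in measured genes and 20.1, 17.8 and 20.2 CPM on the minus strand, with 84.4 CPM on the plus strand in the deleted library. Against the median of all genes with any count the members stood at 16.3, 15.0 and 12.5 times. This fell to 0.858, 0.740 and 0.780 times in measured genes and to 1.24, 1.27 and 1.22 times on the plus strand, and on the minus strand it was 7.5 times in the deleted library.

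For H3K27me3 no member passed the minimum, so the scalings, the minimum of 50 and the ratio of 2 gave no member values. Without a minimum 1 member was higher rescue against deleted (Rpl10a) and 3 rescue against floxed (Rpl10a, Rps10 and Rpl38), beside 1149 and 1000 of 23688 genes. The median log2 ratios of 76 members were then 0.55, 0.67 and 1.19. The summed deleted-to-floxed ratio of plus-strand members was 1.38 with olfactory receptor scaling (0.903 to 2.12), and the summed ratios of all members left out 1 in every scaling. No Flag list had a summit within 1 or 50 kb of a member. Of all 25275 genes with a position, 0.471%, 0.222% and 0.404% had one within 1 kb in the floxed, deleted and rescue lists. Within 50 kb the shares were 1.69%, 0.76% and 1.49%, so a count of 0 is again not a result about the class.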
